A study of Homo sapiens with 6 samples.

Results

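NF-kB signalling was examined through 10 genes of 59565 loci counted by RNA-seq, chosen by name: the subunit genes NFKB1, NFKB2, RELA and RELB, the inhibitor genes NFKBIA and NFKBIE, and the target genes TNFAIP3, BIRC3, TNFAIP2 and ICAM1. All 10 were matched by symbol to one Ensembl identifier each, and all 10 passed the count filter. The libraries were made from mRNA of an enzalutamide-resistant line of C4-2 cells, labelled C4-2 Enz-R (3 libraries), and of the parental C4-2 cells (3 libraries). C4-2 is an established human prostate cancer cell line of the LNCaP lineage, and enzalutamide inhibits the androgen receptor. The labels do not say whether the Enz-R line is a single clone, whether its cells were in enzalutamide when collected, or whether the libraries of a group came from separate cultures. The p-values therefore reflect library-to-library spread alone, possibly only technical, and each group stands for one line.

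NF-kB is a family of dimeric transcription factors made from the Rel proteins encoded by RELA, RELB, REL, NFKB1 and NFKB2. In the canonical branch, a kinase complex with the catalytic subunit IKBKB marks the IkB inhibitors (NFKBIA, NFKBIE) for degradation, and dimers of RELA with the NFKB1 product enter the nucleus. In the non-canonical branch, the kinase encoded by MAP3K14 (NIK) and CHUK trigger processing of the NFKB2 precursor, which pairs with RELB. Several genes of the pathway are themselves NF-kB targets, among them NFKB2, RELB, NFKBIA and TNFAIP3. In cells of the prostate cancer lineage the pathway is known for its part in survival and inflammatory signalling.

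NF-kB dimers bind short DNA elements called kappa B sites. Promoter sequence was at hand for 8 of the 10 genes in the RefSeq table on GRCh38.p14, in 12 windows because NFKB2 has 3 start sites and NFKB1 and RELA 2 each. In the 250 bases before each start, the kappa B consensus was found on either strand for 5 of the 8 genes (NFKB1, NFKB2, NFKBIA, TNFAIP3 and BIRC3) and in 6 of their 12 windows. The same consensus was found in 9.96% of 35116 promoters. The exact letters GGAAATTCC, on either strand, were found for 3 of the 8 genes (NFKB1, NFKBIA and ICAM1) and in 0.413% of the promoters; in NFKB1 and NFKBIA they overlap the consensus. RELA and TNFAIP2 had neither in this window, and RELB and NFKBIE were not in the table. One stretch is shown for each gene with a match, since these elements define the family's targets; each is read on the strand of its gene, and capitals mark the matched letters.
NFKB1 (chr4:102501300-102501329, plus strand): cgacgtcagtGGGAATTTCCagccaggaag
NFKB2 (chr10:102394462-102394490, plus strand): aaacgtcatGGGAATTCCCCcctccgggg
NFKBIA (chr14:35404811-35404840, minus strand): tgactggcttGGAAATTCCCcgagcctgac
TNFAIP3 (chr6:137867194-137867223, plus strand): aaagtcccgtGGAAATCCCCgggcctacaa
BIRC3 (chr11:102317275-102317304, plus strand): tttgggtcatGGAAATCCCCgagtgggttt
ICAM1 (chr19:10270924-10270952, plus strand): gctttagcttGGAAATTCCggagctgaag
A match is a description of the letters, and binding was not measured.

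Totals ran from 15673404 to 23351394 counts in the Enz-R libraries and from 19400321 to 28247038 in the parental libraries. Mitochondrially encoded genes took 14.5% to 15.5% of the Enz-R counts and 8.78% to 11.3% of the parental counts. Their part in the results was not tested beyond leaving these genes out before scaling, which changed no call among the 10 members. All 8 luminal prostate markers passed the filter, with summed levels of 5272 to 5450 CPM (read counts scaled to a common library size by TMM) in Enz-R and 8713 to 9347 CPM in parental libraries. The 11 leukocyte markers summed to 7.64 to 10.2 CPM in Enz-R and 7.51 to 10.8 CPM in parental libraries, 8 of the 11 were under 1 CPM in both groups, and AIF1 was at 0 counts in Enz-R. The 6 endothelial markers summed to 5.12 to 6.54 CPM in Enz-R and 10.6 to 12.8 CPM in parental libraries, and the 7 fibroblast markers to 49.6 to 58.6 CPM and 60.3 to 63.4 CPM in the same order. COL1A1 held most of the fibroblast sum, at 46.8 CPM in Enz-R and 54.8 CPM in parental libraries. VWF made up most of the difference in the endothelial sum, at 0.651 CPM in Enz-R and 5.21 CPM in parental libraries. PECAM1 and CDH5 averaged under 1 CPM in both groups.

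The comparison asks how transcripts of the NF-kB pathway differ between the resistant and the parental cells. In Enz-R the non-canonical subunit genes NFKB2 and RELB were higher, and NFKB1 was lower. Of the targets, TNFAIP2 and BIRC3 were higher and ICAM1 was lower by a small step, while TNFAIP3 and the inhibitor gene NFKBIE were not called. NFKBIA was higher by 1.14-fold, and RELA was lower with a log2 fold change of -0.14, near the threshold. The calls of ICAM1, NFKBIA and RELA were each lost under some alternatives. Under the quasi-likelihood test of edgeR, with p-values adjusted by Benjamini-Hochberg over 19029 tested genes, 8 of the 10 members passed an adjusted p of 0.05, against 64.8% of all tested genes. Of these, 5 were higher (32.4% of all tested genes were) and 3 lower (32.3%). Only 1 of the 3 lower ones was called without Enz-R replicate 3, parental replicate 1 or parental replicate 3. The groups did not overlap for 7 of the 10, against 68.9% of all tested genes. Only TNFAIP2 was both called and at least 2-fold different, 1 of 10 members against 19.7% of all tested genes. The median log2 fold change of the members was 0.23 beside 0.01 for all tested genes, and the median size regardless of sign was 0.34 beside 0.46. The called share thus lay near that of all genes, and nothing particular to the members as a set is read from it. In bulk RNA, fewer cells with a transcript and less transcript per cell cannot be told apart.

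**Figure D1:**
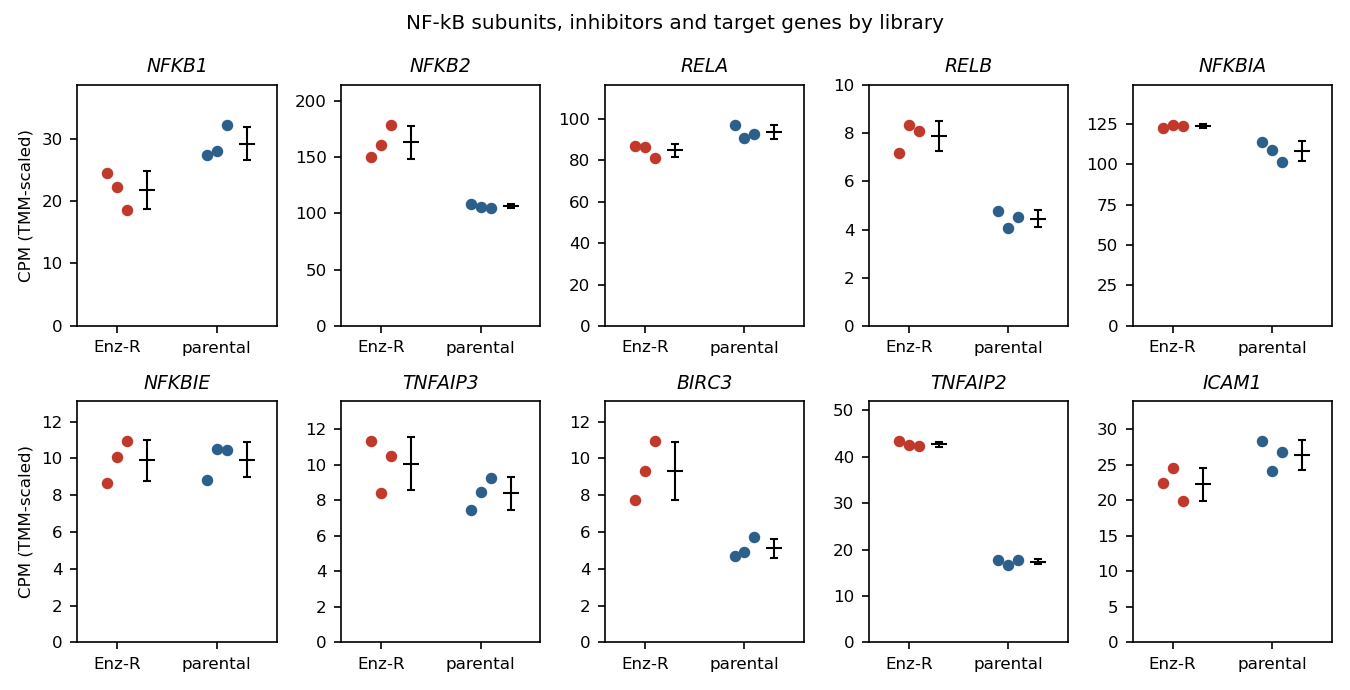
CPM scaled by TMM (vertical axes, from 0) of the 10 genes in each library, with Enz-R libraries left (red) and parental libraries right (blue). Black marks show the mean ± SD of 3 libraries. The groups are apart for 7 genes and overlap for NFKBIE, TNFAIP3 and ICAM1.

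NFKB2 (ENSG00000077150, chromosome 10, 102394110 to 102402529 on GRCh38), the precursor gene of the non-canonical branch, had 149.7, 161 and 179 CPM in the Enz-R libraries and 108, 106 and 105 CPM in the parental libraries. Every Enz-R library lay above every parental one. The log2 fold change was 0.62 ± 0.07 (SE; adjusted p = 1.30e-06 by edgeR). RELB (ENSG00000104856, chromosome 19, 45001430 to 45038198), whose protein is the usual partner of the processed NFKB2 product, had 7.17, 8.35 and 8.09 CPM in Enz-R and 4.77, 4.06 and 4.54 CPM in parental libraries. The groups did not overlap, and the log2 fold change was 0.81 ± 0.14 (edgeR adjusted p = 0.000106). Both calls were kept under all 14 alternatives.

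NFKB1 (ENSG00000109320, chromosome 4, 102501329 to 102617302), the precursor gene of the canonical branch, had 24.5, 22.2 and 18.5 CPM in Enz-R and 27.3, 28.0 and 32.2 CPM in parental libraries. All 3 Enz-R libraries were below all 3 parental ones, and the log2 fold change was -0.41 ± 0.10 (edgeR adjusted p = 0.00191). RELA (ENSG00000173039, chromosome 11, 65653596 to 65663094), the main transactivating subunit, had 86.8, 86.4 and 81.4 CPM in Enz-R and 97.2, 90.9 and 93.0 CPM in parental libraries. The groups were apart by a narrow gap. Its log2 fold change was -0.14 ± 0.06 (edgeR adjusted p = 0.0474), and under other settings its adjusted p spanned 0.00262 to 0.164. The RELA call was lost without Enz-R replicate 2 (adjusted p = 0.0784), Enz-R replicate 3 (0.164), parental replicate 1 (0.120), parental replicate 2 (0.0534) or parental replicate 3 (0.0750), each by edgeR, and also with DESeq2 (0.0722), with no filter (0.0743) and with the stricter filter (0.105).

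REL, the fifth family gene and not one of the 10, had 3.84, 4.24 and 5.05 CPM in Enz-R and 5.12, 7.86 and 6.59 CPM in parental libraries. Its log2 fold change was -0.57 ± 0.18 (edgeR adjusted p = 0.0101), and the call was lost without parental replicate 2 (-0.43, adjusted p = 0.0618). Of its 13170 exon bases, 5702 overlap a non-coding gene on the same strand, so its level is uncertain.

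Set per length of merged exons, the Rel family transcripts had another composition in Enz-R. NFKB2 made up 62.3% ± 2.99 of the family's summed level in Enz-R and 49.9% ± 0.741 in parental libraries (SD, n = 3 each). RELA made up 26.7% ± 2.00 in Enz-R and 36.1% ± 0.687 in parental libraries. NFKB1 held 5.99% ± 1.08 in Enz-R and 9.83% ± 0.911 in parental libraries, RELB 4.44% ± 0.249 and 3.09% ± 0.204 in the same order, and REL 0.568% ± 0.0562 and 1.05% ± 0.237. None of these shares overlapped between the groups, where the groups did not overlap for 68.9% of all tested genes. The shares are parts of one sum, so a higher NFKB2 level by itself lowers the shares of the others. RELA itself had a log2 fold change of only -0.14, a call not kept under all alternatives. The ratio of NFKB2 to NFKB1 per length, which does not depend on library scaling, was 8.52, 10.1 and 13.5 in Enz-R and 5.52, 5.28 and 4.54 in parental libraries, a difference of 1.04 on the log2 scale. The ratio of RELB to RELA was 0.149, 0.174 and 0.179 in Enz-R and 0.0883, 0.0803 and 0.0879 in parental libraries, a log2 difference of 0.96. Both ratios were apart in all libraries, with an exact two-sided permutation p of 0.1, the smallest that 3 against 3 libraries allow. In each ratio the numerator gene was higher and the denominator gene lower in every Enz-R library than in every parental one. The separation and its p were thus fixed by the single genes and are no further evidence. These are levels of transcripts; the proteins and their processing were not measured.

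**Figure D2:**
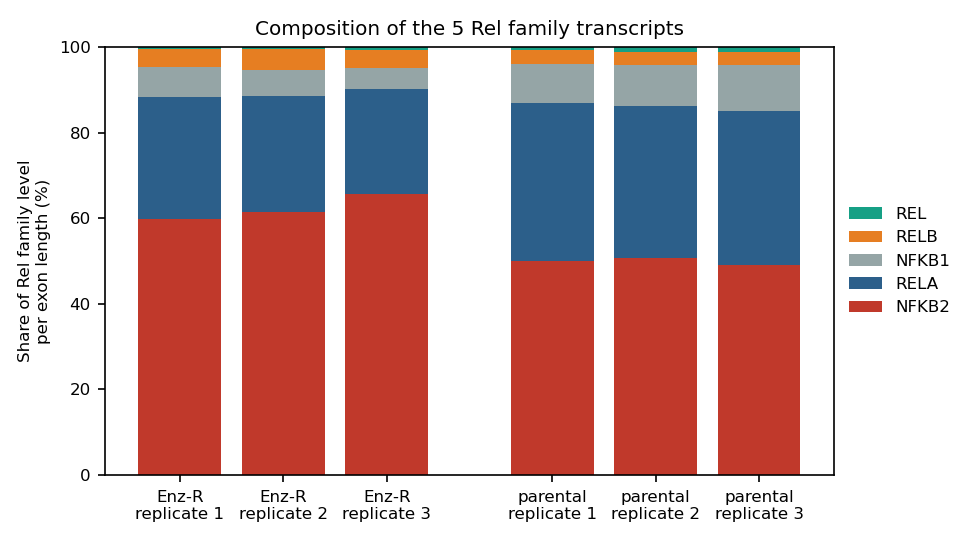
Share of each Rel family transcript (percent, vertical axis) in the summed level per exon length of the 5 family genes, by library, with the 3 Enz-R libraries left of the 3 parental ones. The NFKB2 share is 59.8% to 65.6% in Enz-R and 49.2% to 50.6% in parental libraries.

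Among the inhibitors, NFKBIA (ENSG00000100906, chromosome 14, 35401511 to 35404749), which encodes IkB-alpha, had 122, 124 and 124 CPM in Enz-R and 114, 109 and 101 CPM in parental libraries. All Enz-R libraries were above all parental ones, by a small step of 0.19 ± 0.06 on the log2 scale (edgeR adjusted p = 0.0113). That call was lost without parental replicate 3 (0.14, adjusted p = 0.0915), with library totals as the only scaling (0.10, adjusted p = 0.165) and with no filter (0.17, adjusted p = 0.0539); over the alternatives its adjusted p ran from 0.00389 to 0.165. Per length, the ratio of NFKBIA to RELA was 3.35 ± 0.132 in Enz-R and 2.65 ± 0.127 in parental libraries (SD, n = 3 each). It was apart in all libraries (exact two-sided permutation p = 0.1, the smallest possible). NFKBIA was higher and RELA lower in every Enz-R library, so the single genes had fixed this separation. NFKBIE (ENSG00000146232, chromosome 6, 44258166 to 44265788), which encodes IkB-epsilon, had 8.68, 10.1 and 10.9 CPM in Enz-R and 8.84, 10.5 and 10.4 CPM in parental libraries. The groups overlapped, and the log2 fold change was -0.01 ± 0.12 (edgeR adjusted p = 0.960).

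The other 5 genes of the Rel and IkB families beside the members were all tested, and 2 were higher, 2 lower and 1 not called. Of all tested genes, 32.4% were higher and 32.3% lower. NFKBID, which encodes a nuclear IkB protein, had 13.7, 12.8 and 16.4 CPM in Enz-R and 6.86, 6.16 and 6.25 CPM in parental libraries. The groups were far apart, with a log2 fold change of 1.15 ± 0.12 (edgeR adjusted p = 1.00e-06). NFKBIZ, another nuclear IkB gene, was lower (4.09 ± 0.446 CPM in Enz-R and 5.92 ± 0.683 CPM in parental libraries; SD, n = 3 each; -0.52 ± 0.15). NFKBIB, a cytoplasmic inhibitor gene, was higher by 0.25 ± 0.09 on the log2 scale (edgeR adjusted p = 0.0176). Its call was lost without Enz-R replicate 1 (adjusted p = 0.0632), parental replicate 2 (0.0582) or parental replicate 3 (0.0800) by edgeR and with totals only (0.120). BCL3, a nuclear coactivator of the family, averaged 15.1 ± 0.500 CPM in Enz-R and 14.9 ± 1.23 CPM in parental libraries and was not called. NFKBIB shares 40 exon bases with SIRT2 on the opposite strand, whose reads cannot be told apart without strand.

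Of the member targets, TNFAIP2 (ENSG00000185215, chromosome 14, 103123442 to 103137439), a TNF-induced gene linked to the exocyst, moved most. It had 43.4, 42.5 and 42.3 CPM in Enz-R and 17.8, 16.7 and 17.7 CPM in parental libraries. The values within each group lay close together and the groups were far apart, with a log2 fold change of 1.30 ± 0.07 or 2.45-fold (edgeR adjusted p = 5.32e-10). BIRC3 (ENSG00000023445, chromosome 11, 102317450 to 102339403), which encodes the ubiquitin ligase cIAP2, had 7.77, 9.29 and 10.9 CPM in Enz-R and 4.70, 4.91 and 5.71 CPM in parental libraries. The groups did not overlap, and the log2 fold change was 0.86 ± 0.15 or 1.82-fold (edgeR adjusted p = 0.000124). The calls of TNFAIP2 and BIRC3 were kept under all 14 alternatives.

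TNFAIP3 (ENSG00000118503, chromosome 6, 137867188 to 137883312), which encodes the deubiquitinase A20, a brake on the pathway, had 11.3, 8.41 and 10.5 CPM in Enz-R and 7.45, 8.46 and 9.27 CPM in parental libraries. Its groups overlapped through Enz-R replicate 2, and the log2 fold change of 0.27 ± 0.14 was not called (edgeR adjusted p = 0.0891). Without that library it was 0.39 with adjusted p = 0.0238, while over all alternatives the adjusted p ran from 0.0238 to 0.308. ICAM1 (ENSG00000090339, chromosome 19, 10270835 to 10286615), an adhesion receptor for leukocyte integrins, had 22.4, 24.5 and 19.9 CPM in Enz-R and 28.3, 24.1 and 26.7 CPM in parental libraries. Enz-R replicate 2 lay above parental replicate 2, so the groups overlapped. The log2 fold change was -0.25 ± 0.09 (edgeR adjusted p = 0.0271), and the call was lost without Enz-R replicate 3 (-0.17, adjusted p = 0.122), parental replicate 1 (-0.20, 0.110) or parental replicate 3 (-0.25, 0.0652). Of the 3706 exon bases of ICAM1, 815 overlap ICAM4-AS1 on the opposite strand, and of the 5051 of TNFAIP3, 95 overlap WAKMAR2; the kit is not stated to mark strand, so those reads cannot be told apart.

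Per length of merged exons the members spanned a wide range. In Enz-R the order from the top was NFKBIA with 52.0 ± 0.451, NFKB2 with 36.4 ± 3.28, RELA with 15.5 ± 0.550 and TNFAIP2 with 8.49 ± 0.110 CPM per kilobase (SD, n = 3). ICAM1 (6.01), NFKBIE (3.83), NFKB1 (3.48), RELB (2.59), TNFAIP3 (1.99) and BIRC3 (1.24 CPM per kilobase) followed. In the parental libraries the order was NFKBIA with 45.5 ± 2.57, NFKB2 with 23.7 ± 0.380, RELA with 17.2 ± 0.592 and ICAM1 with 7.12 ± 0.575 CPM per kilobase, then NFKB1 (4.67), NFKBIE (3.85), TNFAIP2 (3.46), TNFAIP3 (1.66), RELB (1.47) and BIRC3 (0.679 CPM per kilobase). The top 3 places were the same in both groups, and TNFAIP2 stood at place 4 in Enz-R and place 7 in parental libraries. Neighbours in the order whose libraries overlapped were NFKBIE and NFKB1 in Enz-R, and NFKBIE and TNFAIP2 as well as TNFAIP3 and RELB in the parental libraries.

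**Figure D3:**
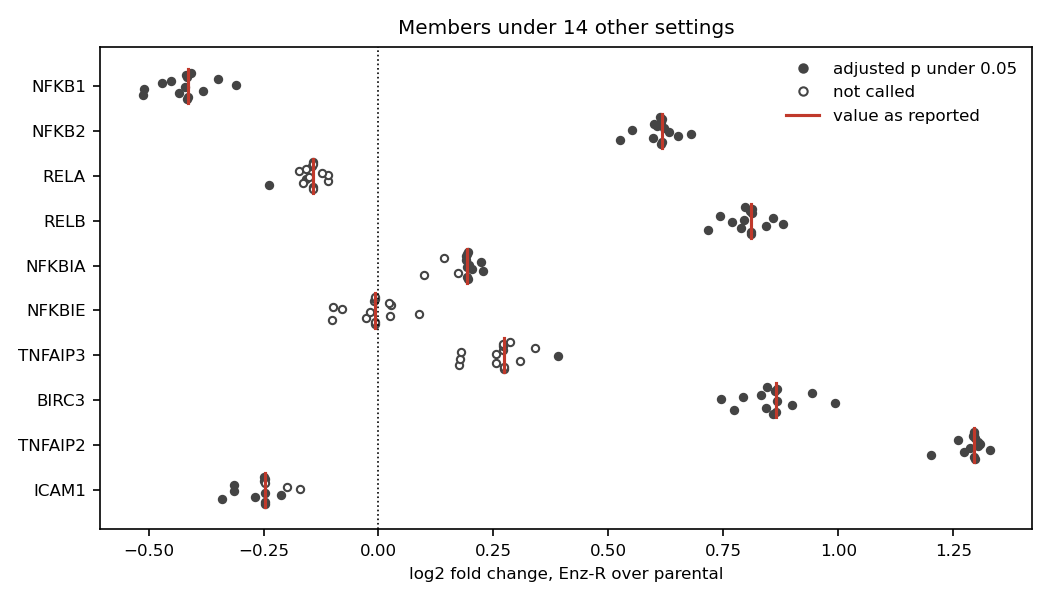
Log2 fold change of Enz-R over parental (horizontal axis) for each of the 10 genes as reported (red line) and under 14 other settings (points, filled where adjusted p was under 0.05). NFKB2, RELB, BIRC3, TNFAIP2 and NFKB1 stay filled throughout, whereas RELA, NFKBIA, TNFAIP3 and ICAM1 have both kinds of point.

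The 10 genes lie on 6 chromosomes, and their nearest tested protein-coding genes were looked at. Beside the 8 called members lay 16 such neighbours. Of these, 3 were called in the same direction, 9 in the opposite direction and 4 were not called. Among all tested genes 64.8% were called, 32.4% higher and 32.3% lower, and nothing about the loci is read from these counts. RELB was the one member with both neighbours called its way (CLPTM1, 0.58, and CLASRP, 0.44 on the log2 scale). NFKB1 lay between SLC39A8 (0.93) and MANBA (1.00), which were both higher. BIRC3 and its paralog BIRC2 lie 7.81 kilobases apart on chromosome 11 and were called in opposite directions. BIRC2, which encodes cIAP1, averaged 26.2 ± 0.281 CPM in Enz-R and 38.2 ± 1.42 CPM in parental libraries (SD, n = 3 each; -0.54 ± 0.07, edgeR adjusted p = 4.67e-06). Per length, the ratio of BIRC3 to BIRC2 was 0.177, 0.215 and 0.253 in Enz-R and 0.0754, 0.0797 and 0.0865 in parental libraries. It was apart in all libraries (exact two-sided permutation p = 0.1, the smallest possible). BIRC3 was higher and BIRC2 lower in every Enz-R library, so the single genes had fixed this separation.

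Of 10 relatives of the member targets by name, 6 passed the filter, with 3 lower and none higher (32.3% and 32.4% of all tested genes). Beside BIRC2 these were TNFAIP8, an apoptosis regulator (-0.73 ± 0.13), and BIRC5, which encodes the mitotic protein survivin (-0.29 ± 0.07). ICAM5, next to ICAM1 on chromosome 19, stood at 0.04 ± 0.07 and XIAP at 0.01 ± 0.06, neither called. BIRC2 is counted again among the activators below, and XIAP among the survival targets. Over 6 libraries, the protein-coding genes whose gene-centred log2 CPM lay nearest to TNFAIP2, the largest called rise, were B9D1, TNFRSF12A and MIDN, with root mean square differences of 0.0411, 0.0435 and 0.0461. Those nearest to NFKB1, the largest called fall, were AMER1, TP53RK and NAF1, with 0.0401, 0.0421 and 0.0462.

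Upstream of the members, receptors that signal to NF-kB were compared. Of 20 receptor genes 15 passed the filter, with 5 higher, 4 lower and 6 not called, and a median log2 fold change of 0.05. The 9 called of 15 lay near the 64.8% of all tested genes. TNFRSF12A, the receptor of the cytokine TWEAK, averaged 47.4 ± 2.51 CPM in Enz-R and 19.7 ± 0.843 CPM in parental libraries (SD, n = 3 each; 1.27 ± 0.07, edgeR adjusted p = 1.05e-09). The flagellin receptor gene TLR5 was higher at 5.75 ± 0.312 CPM in Enz-R against 2.90 ± 0.585 CPM in parental libraries (0.96 ± 0.17). CD40, a TNF receptor family member best known from B cells, had 11, 10 and 6 counts in Enz-R and 379, 238 and 234 counts in parental libraries. Its mean level was 0.493 ± 0.1003 CPM in Enz-R and 12.2 ± 0.916 CPM in parental libraries (-4.60 ± 0.19, edgeR adjusted p = 3.11e-11). CD40 passed the filter only with the parental libraries, where it was high, so the filter itself largely fixed its direction. The interleukin-1 receptor genes IL1R1 (-0.60 ± 0.07) and IL1RAP (-0.57 ± 0.12) were also lower. The other called receptors, named after their values were seen, were TLR2 (1.65 ± 0.34), IL18R1 (1.31 ± 0.25) and NOD1 (0.45 ± 0.16), each averaging under 5 CPM and higher, and IL17RA (-0.21 ± 0.06), which was lower. TLR2 passed the filter only with the Enz-R libraries, where it was high, and without parental replicate 1 its log2 fold change was 2.25. The NOD1 call was lost without Enz-R replicate 2 (adjusted p = 0.0628), Enz-R replicate 3 (0.0722), parental replicate 1 (0.0518) or parental replicate 2 (0.0854) by edgeR, and also with totals only (0.0758), with no filter (0.0609) and with DESeq2 (0.0625).

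Ligand transcripts were few. Of 12 ligand genes 3 passed the filter, none reached 2 CPM, and they are named after their values were seen. The 3 passed only through the Enz-R libraries, where they were high, so the filter itself largely fixed their direction, and nothing is read from their number. TNF had 14, 13 and 11 counts in Enz-R and 4, 6 and 5 in parental libraries, 3.22-fold (95% counting interval 1.73 to 6.31). TNFSF12, which encodes TWEAK, had 20, 18 and 15 counts in Enz-R and 3, 3 and 3 in parental libraries, 7.50-fold (95% counting interval 3.67 to 17.3). Of the 1879 exon bases of TNFSF12, 553 overlap the gene TNFSF12-TNFSF13 on the same strand, so its level is uncertain. IL18 had 35, 25 and 16 counts in Enz-R and 3, 3 and 5 in parental libraries, 8.79-fold (95% counting interval 4.65 to 18.4). In each case the groups did not overlap, and the intervals cover counting error only. With at least 50 counts required in 3 libraries none of the 3 was tested.

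All 32 kinase, adaptor and ubiquitin ligase genes that activate the pathway passed the filter, with 8 higher, 14 lower and 10 not called (median log2 fold change -0.17). The 22 called of 32 lay near the 64.8% of all tested genes. The largest called rises at 5 CPM or more were those of the adaptor gene TRAF5 (59.1 ± 4.28 CPM in Enz-R and 25.8 ± 2.27 CPM in parental libraries; SD, n = 3 each; 1.19 ± 0.08), of MAP3K14 (38.9 ± 2.12 and 21.0 ± 1.18 CPM in the same order; 0.89 ± 0.08) and of IKBKB (0.67 ± 0.07). The largest falls were those of the kinase gene RIPK2, which acts below NOD receptors (27.0 ± 3.33 CPM in Enz-R and 86.4 ± 3.96 CPM in parental libraries; -1.67 ± 0.08), the paracaspase gene MALT1 (24.8 ± 1.06 and 66.5 ± 3.32 CPM in the same order; -1.43 ± 0.07) and the interleukin-1 receptor kinase gene IRAK1 (-0.99 ± 0.08).

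Genes around NIK were looked at after their values were seen. NIK is kept low by a complex of TRAF3, TRAF2 and the cIAP proteins. TRAF2 and BIRC2 stand on the list of activators above, although this complex restrains NIK. TRAF3 averaged 45.6 ± 1.49 CPM in Enz-R and 64.9 ± 3.45 CPM in parental libraries (SD, n = 3 each; -0.51 ± 0.07, edgeR adjusted p = 6.26e-06). BIRC2 (cIAP1) was lower and BIRC3 (cIAP2) was higher, as given above. TRAF2 was higher by 0.27 ± 0.08 (edgeR adjusted p = 0.00697), a call lost with totals only (0.17, adjusted p = 0.0851). CHUK, the kinase that NIK activates, was lower (15.3 ± 1.49 CPM in Enz-R and 20.9 ± 1.63 CPM in parental libraries; SD, n = 3 each; -0.44 ± 0.10).

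Of 15 negative regulator genes 13 passed the filter, with 10 lower, 2 higher and 1 not called, where 32.3% of all tested genes were lower and 32.4% higher. Their median log2 fold change was -0.27 beside 0.01 for all tested genes, and nothing particular to the list is read from it. OTULIN, which removes linear ubiquitin chains, averaged 15.8 ± 0.217 CPM in Enz-R and 33.9 ± 2.17 CPM in parental libraries (SD, n = 3 each; -1.10 ± 0.08, edgeR adjusted p = 1.26e-08). The deubiquitinase gene OTUD7B (-0.75 ± 0.07) and the ubiquitin ligase gene ITCH (-0.73 ± 0.07) followed. TANK (0.34 ± 0.10) and TNIP2 (0.24 ± 0.07) were higher, and the TNIP2 call was lost without parental replicate 2 (0.19, adjusted p = 0.0619 by edgeR) and with totals only (0.14, adjusted p = 0.117).

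Target genes outside the 10 were listed by kind, and the lists were not tested against each other. Of 20 cytokine and chemokine targets only 5 passed the filter, with 2 higher, 1 lower and 2 not called. Of all tested genes, 32.4% were higher and 32.3% lower. IL32 had 135, 123 and 106 counts in Enz-R and 34, 13 and 13 in parental libraries, or 6.75 ± 0.542 CPM in Enz-R and 0.823 ± 0.312 CPM in parental libraries (SD, n = 3 each; 2.97 ± 0.22, edgeR adjusted p = 1.79e-08). The other 2 called ones, named after their values were seen, were IL23A (0.70 ± 0.22), whose call was lost without parental replicate 2 (0.54, adjusted p = 0.0646 by edgeR), and the macrophage growth factor gene CSF1 (-1.51 ± 0.25), both under 5 CPM. With no filter 6 of the 20 were called higher, where 6475 genes were in all, and nothing is read from that count. Of 10 survival and stress targets 8 passed the filter, with 2 higher and 2 lower (32.4% and 32.3% of all tested genes). GADD45B, a stress sensor gene, averaged 62.0 ± 6.54 CPM in Enz-R and 21.1 ± 2.04 CPM in parental libraries (SD, n = 3 each; 1.55 ± 0.09), and the death receptor gene FAS was higher by 1.35 ± 0.13. The anti-apoptotic genes CFLAR (-0.59 ± 0.07) and BCL2L1 (-0.56 ± 0.07) were lower.

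Of 26 further targets with roles in adhesion, proteolysis, the acute phase and transcription, 16 passed the filter, with 12 higher, 1 lower and 3 not called, where 32.4% of all tested genes were higher and 32.3% lower. Their median log2 fold change was 1.02 beside 0.01 for all tested genes. Of the 16, 8 were called and at least 2-fold different, against 19.7% of all tested genes. Among the 8 were C3 and PSMB9, the latter with the highest fold change of the list, both named after their values were seen. They passed the filter only with the Enz-R libraries, where they were high, so nothing is read from the number. SDC4, a cell surface proteoglycan gene, averaged 244 ± 12.8 CPM in Enz-R and 97.8 ± 4.11 CPM in parental libraries (SD, n = 3 each; 1.32 ± 0.06, edgeR adjusted p = 1.58e-10). The transcription factor genes IRF1 (9.04 ± 1.14 CPM in Enz-R and 2.83 ± 0.661 CPM in parental libraries; SD, n = 3 each; 1.64 ± 0.17) and KLF6 (1.34 ± 0.10) were also higher, and the tetraspanin gene CD82 was lower (-0.37 ± 0.10). IRF1 shares 1716 of its 7799 exon bases with IRF1-AS1, MAP3K14 shares 713 of 5784 with MAP3K14-AS1 and BCL2L1 shares 1424 of 3314 with ABALON, each on the opposite strand, so their levels are uncertain. Many of the further targets are also targets of other pathways, and the list was drawn up with earlier results of these data known. No test of the list was made.

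**Figure D4:**
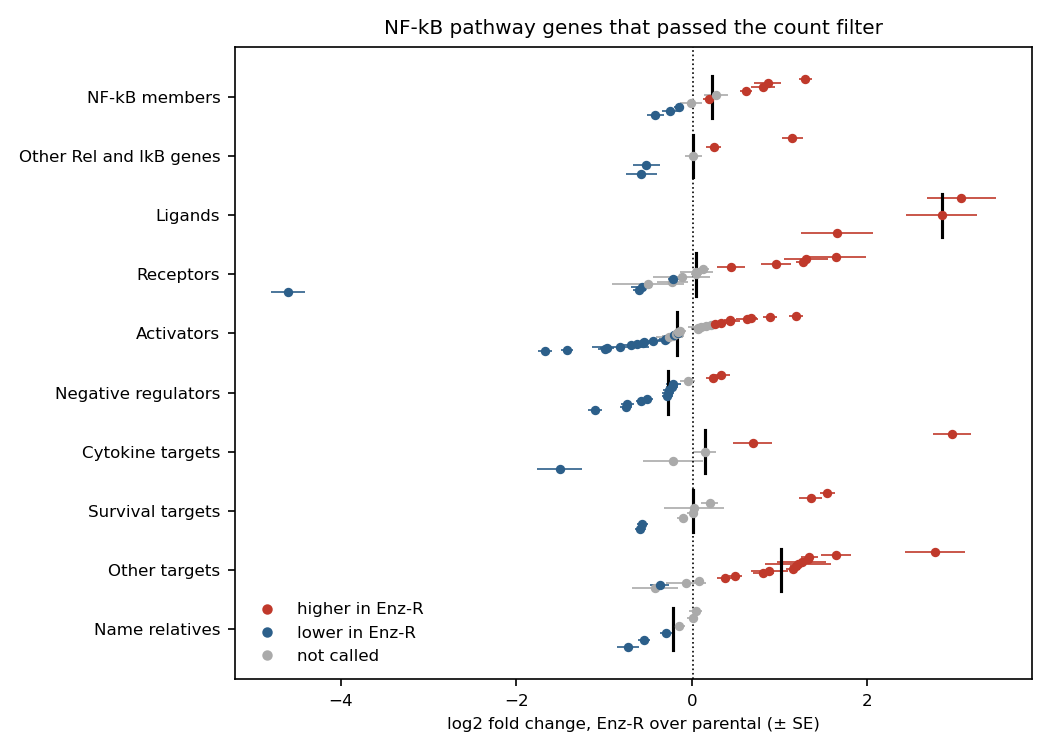
Log2 fold change of Enz-R over parental ± SE (horizontal axis) for each tested gene of the NF-kB lists (rows), coloured by call. Black bars are list medians and the dotted line is the median of all tested genes, 0.01. The further targets have a median of 1.02, the negative regulators one of -0.27 and the activators one of -0.17. The survival targets have a median of 0.02 and the name relatives one of -0.22. The lists were chosen with earlier results of these data known.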

How the data were processed

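Gene-level RNA-seq counts of 6 libraries were used. The libraries were read as 150 bp pairs on an Illumina HiSeq, per the labels' protocols, and HISAT2 and GRCh38 are named in the submitters' processing notes. Not given in the sources used here are the aligner's version, the counting tool, its annotation and strandedness. The deposited values are raw counts per gene, which the authors made before any scaling. Symbols, positions and merged exon lengths came from GENCODE 29 and a list of current gene names; SOD2 has 2 identifiers, of which the more abundant was used. Promoter sequences are RefSeq's on GRCh38.p14.

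The comparison of Enz-R with parental libraries used edgeR 4.0.16 under R 4.3.3 (filterByExpr, TMM, glmQLFit, glmQLFTest, no covariate), adjusted by Benjamini-Hochberg over 19029 tested genes, threshold 0.05. CPM use TMM-scaled sizes. The SE is the log2 fold change divided by the root of the F statistic. Ratios of group counts have exact 95% counting intervals. The chi-square of replicate pairs was 3.91 to 8.98 per degree of freedom, so no library repeats another. Counts were also simulated over 19029 genes, with the same relative spread assumed for all genes. In them 67 genes were changed 1.5-fold, 67 genes 2-fold and 66 genes 4-fold. Of these 68.7%, 83.6% and 100% were found in the same order, with 14 false calls. In the real comparison 64.8% of tested genes were called, so these rates may not carry over to it.

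Alternatives were the replicate block, DESeq2 size factors, totals only, no filter, at least 50 counts in 3 libraries, DESeq2 1.42.0, limma-voom (limma 3.58.1) and leaving out each library; leaving out mitochondrially encoded genes was added after the data were seen. The members and lists were chosen with earlier results of these data known. Named genes are the 10 members, all other Rel and IkB genes, and up to 3 called risers and 3 called fallers per list whose groups are apart and whose higher group averages at least 5 CPM, plus genes said to be named after their values were seen. Tables were made in Python 3.11.15 (numpy 2.4.6, pandas 2.3.3, scipy 1.17.1) and figures with matplotlib 3.10.9.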

Additional observations from a re-analysis of the deposited data

How the results depend on the processing

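Over 14 alternatives, 4 to 6 members were higher; leaving out a library gave 1 to 3 lower members, and other settings 2 or 3. The count of genes higher in Enz-R ran from 5097 to 6475 and that of genes lower in Enz-R from 5049 to 7094, within 1.5 times the reported 6173 and 6150. Of 55 named genes tested, 43 kept direction and call under every alternative that tested them. TNF, TNFSF12, IL18, TLR2, IL18R1 and IL23A were not tested with at least 50 counts in 3 libraries. C3 and PSMB9 had under 50 counts in each library and were not tested there either. They are not among the 55, and their calls under the alternatives are not given. NFKBIE and BCL3, called under no setting, changed sign, and the cause was not tested. The NFKBIE log2 fold change was 0.0258 with at least 50 counts in 3 libraries and -0.0996 to 0.0883 with a library left out. The BCL3 log2 fold change was -0.0766 with totals only, -0.00236 with no filter and -0.0483 to 0.0648 with a library left out. The replicate numbers are not shown to pair the libraries: deviations of same-numbered libraries from their group means correlated at -0.00808 to 0.0493 across genes. With the replicate block 6179 genes were higher and 6158 lower, 5 members were higher and 2 lower, and RELA (adjusted p = 0.0573 by edgeR) was the member whose call changed. With totals only, the median log2 fold change of all genes was -0.08 instead of 0.01. Genes under about 1 CPM, such as most ligands and cytokines, are limited by depth.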

Other observations

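Several chemokine targets of NF-kB below the count filter had higher summed counts, relative to library size, in Enz-R. They were chosen after their values were seen, so nothing is read about chemokines as a group. CCL5, also below the filter, had 8, 8 and 6 counts in Enz-R and 14, 7 and 4 in parental libraries. Its groups overlapped on the CPM scale. CXCL1, which passed the filter, had 11, 9 and 10 counts in Enz-R and 15, 16 and 13 in parental libraries. It was not called (-0.21 ± 0.34). CCL2, which draws monocytes, had 10, 19 and 17 counts in Enz-R and 0, 1 and 0 in parental libraries, a ratio of 58.6 with a 95% counting interval of 9.998 to 2362. CCL20, which draws cells that carry the receptor CCR6, had 5, 4 and 10 counts in Enz-R and 1, 2 and 0 in parental libraries, a ratio of 8.06 (95% counting interval 2.37 to 42.5). CXCL2 had 10, 6 and 7 counts in Enz-R and 4, 1 and 5 in parental libraries, a ratio of 2.93 (95% counting interval 1.34 to 6.89). CXCL8, which draws neutrophils, had 15, 8 and 18 counts in Enz-R and 13, 6 and 10 in parental libraries, a ratio of 1.80 (95% counting interval 1.09 to 3.00), and its groups overlapped on the CPM scale. IRAK3, a kinase-like inhibitor of interleukin-1 receptor signalling, had 0 counts in each Enz-R library and 7, 5 and 9 in parental libraries. The intervals cover counting error only, and of these genes only CXCL1 was tested in the reported fit.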
